A study of Mus musculus with 6 samples.

Results

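Hspa5, Hsp90b1, Pdia4, Pdia6, Calr, Xbp1, Dnajb9, Dnajc3, Sdf2l1 and Herpud1 make up the folding side of the unfolded protein response: chaperones and cochaperones of the endoplasmic reticulum (ER), the transcription factor XBP1 and an ER degradation factor. They were followed in hepatic stellate cells of the mouse, which store vitamin A in the healthy liver and turn into collagen-producing myofibroblasts in culture. The 10 genes were chosen by name, and a gene was read from probe sets that the platform's annotation gives to 1 gene symbol. This gave a value for 9 of the 10 genes, out of 22180 genes measured in this way. The only probe set of Pdia4 also names a microRNA gene, so Pdia4 has no value here.

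There were 6 samples, each hybridised to its own Affymetrix array and each pooled from 5 mice, which cover 3 states at 2 ages. The PRI-724 cells were activated by culture on uncoated plastic for more than 20 days and given C-82, the active form of PRI-724, at 10 µM in DMSO; C-82 blocks the pairing of beta-catenin with its coactivator CBP. The vehicle cells were cultured for the same time with DMSO, and the quiescent cells were plated for 12 h. Old mice were 6 to 9 months old and young mice 8 to 11 weeks old, and the labels name no strain or genotype. The length of exposure to C-82 was not given in the sources used here. With 1 array in each group, the state comparisons rest on how far the ages disagree and the age comparison on how far the states disagree. The small number of arrays limits the precision of all values below.

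Proteins that enter the ER are folded by BiP, the product of Hspa5, and by its partners. When unfolded proteins build up, the ER membrane sensors IRE1, ATF6 and PERK are released from BiP. IRE1 splices the mRNA of XBP1, and spliced XBP1 and cleaved ATF6 switch on the genes for chaperones, folding enzymes and degradation factors, while PERK slows translation and raises ATF4 and its targets. Cells that secrete much protein, as activated stellate cells do with collagen, depend on this machinery.

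ATF6 and XBP1 bind short elements in front of these genes, and the elements are shown here because they recur in front of several of the genes. The window from 250 bases before to 50 bases after the start of each gene was searched on both strands for the ER stress element ERSE (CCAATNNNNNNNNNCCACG), for ERSE-II (ATTGG and CCACG with 1 base of any kind between them) and for the core of the unfolded protein response element (TGACGTG). All 10 genes had a window in the RefSeq table for GRCm38.p6, and no matches overlapped. ERSE was found in 5 of the 10 windows (Hspa5, Hsp90b1, Pdia6, Calr and Dnajc3), against 0.119% of all 32851 windows. ERSE-II was found in front of Herpud1, against 0.0365% of all windows, and the element core in front of Hspa5, against 2.01% of all windows. Stretches with 20 bases on either side of the matches are given in gene orientation, 5′ to 3′, with the letters of the matches in capitals. Hspa5 (chr2:34771913-34772063, plus strand) holds the element core and 1 ERSE, and Hsp90b1 (chr10:86705513-86705676, minus strand) holds ERSE on either strand. Pdia6 (chr12:17266471-17266529, plus strand), Dnajc3 (chr14:118937807-118937865, plus strand) and Calr (chr8:84847055-84847113, minus strand) hold 1 ERSE each, that of Calr in reverse. Herpud1 (chr8:94386357-94386407, plus strand) holds the ERSE-II.
Hspa5: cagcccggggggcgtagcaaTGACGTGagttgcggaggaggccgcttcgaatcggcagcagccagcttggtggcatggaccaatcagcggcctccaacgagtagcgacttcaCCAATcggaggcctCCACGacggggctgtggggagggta
Hsp90b1: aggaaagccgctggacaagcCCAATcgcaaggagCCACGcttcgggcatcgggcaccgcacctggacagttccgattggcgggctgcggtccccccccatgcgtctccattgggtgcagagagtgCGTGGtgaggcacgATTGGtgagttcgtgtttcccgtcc
Pdia6: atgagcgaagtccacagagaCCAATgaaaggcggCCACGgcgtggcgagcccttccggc
Dnajc3: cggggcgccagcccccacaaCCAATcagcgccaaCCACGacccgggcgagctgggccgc
Calr: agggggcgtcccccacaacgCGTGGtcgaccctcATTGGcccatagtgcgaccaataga
Herpud1: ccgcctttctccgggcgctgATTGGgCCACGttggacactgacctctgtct

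The other windows, those of Pdia4, Xbp1, Dnajb9 and Sdf2l1, held no exact match to the 3 patterns. A match is a run of letters and no measurement of binding.

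**Figure D1:**
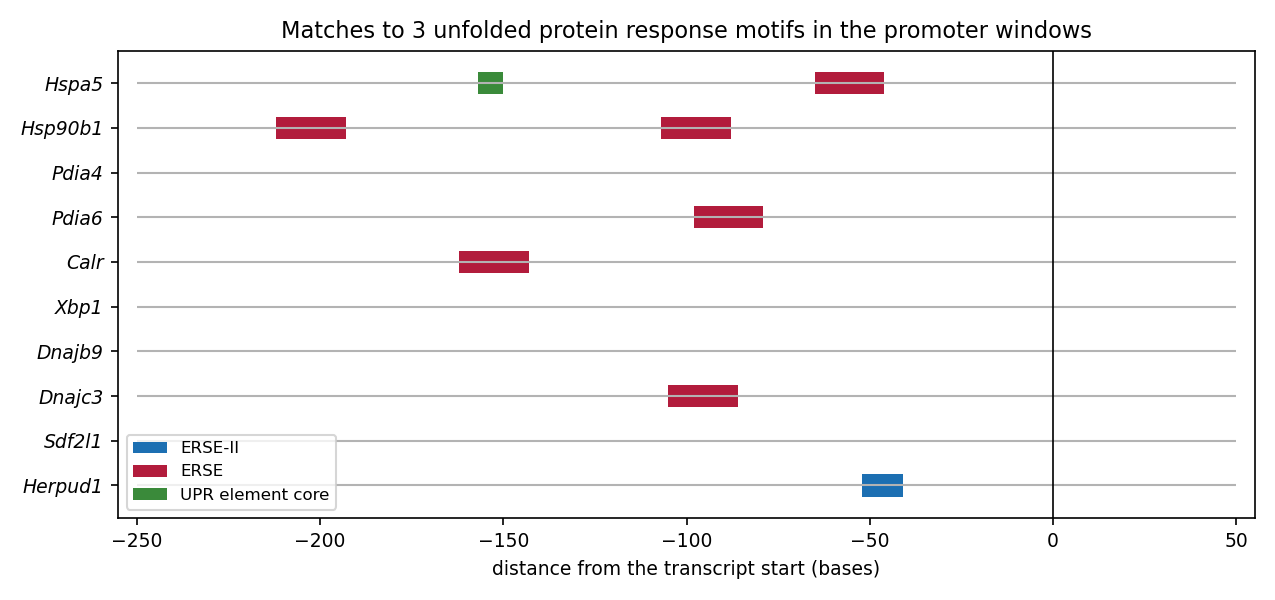
Position of exact matches to ERSE, ERSE-II and the unfolded protein response element core in the 10 promoter windows (horizontal axis, bases from the transcript start; each grey line is 1 window). ERSE lies within 250 bases of the start in 5 of the 10 genes, from 65 bases upstream in Hspa5 to 212 bases in Hsp90b1.

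The stellate cell markers (8 of 8 with a value, such as Lrat and Des) were above the lowest tested mean signal of 4.70 on all 6 arrays. Of these 8, 7 were lower and 1 higher in PRI-724 than in vehicle cells, with a median difference of -0.79 (log2). The summed signal of 6 myofibroblast markers, among them Acta2 and Col1a1, was 12.05 and 9.70 (log2) on the old and young PRI-724 arrays. It was 12.45 and 12.11 on the vehicle arrays and 10.69 and 8.98 on the quiescent arrays. The deposited values are log2 signals, and the arrays differed in spread: the interquartile range over the 15526 tested genes was 1.71 on the young PRI-724 array and 2.11 to 2.43 on the others. The summed signal of 12 macrophage markers was 10.98 and 10.39 (log2) on the old and young PRI-724 arrays, against 13.20 and 13.27 on the vehicle arrays and 13.76 and 12.63 on the quiescent arrays. That of 9 sinusoidal endothelial markers was 10.42 and 9.27 on the PRI-724 arrays, against 12.85 and 13.13 on the vehicle arrays and 12.03 and 13.65 on the quiescent arrays. On the PRI-724 arrays 1 and 2 of the macrophage markers lay below 4.70, and on the others none. Summed hepatocyte markers (8) were higher in old than in young cells in every state, at 11.10 and 9.95 in PRI-724 cells, 10.93 and 8.40 in vehicle cells (where 3 markers lay below 4.70 in young cells) and 13.29 and 10.17 in quiescent cells. Plasma cells are rich in ER chaperones; of 5 B and plasma cell markers with a value, 2 to 4 lay below 4.70 on each array, and their sum ran from 6.78 to 7.40. Cholangiocyte markers (4) summed to 7.62 to 8.13. Mesothelial markers (4) summed to 9.13 to 9.50 on the PRI-724 and vehicle arrays and to 7.78 and 7.99 on the quiescent arrays. These sums move with the states and ages set side by side below, and their part in the results was not tested. In RNA from pooled cells, fewer cells of a type and less RNA per cell cannot be told apart.

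All 9 genes passed the filter on low signal, and each was among the brightest 25% of tested genes (3882 genes). Signals of different probe sets share no scale, so levels are compared within a gene only. The range over the 6 arrays ran from 0.75 for Xbp1 to 1.72 for Sdf2l1 on the log2 scale.

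Hspa5 encodes BiP, the Hsp70 chaperone of the ER lumen. Its log2 signal was 9.69 and 9.45 in old and young PRI-724 cells, 9.23 and 9.82 in old and young vehicle cells, and 9.75 and 10.31 in old and young quiescent cells. The young quiescent array was the highest and the old vehicle array the lowest. Both PRI-724 arrays lay below both quiescent arrays, while the vehicle arrays enclosed the PRI-724 arrays.

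Hsp90b1 encodes GRP94, the Hsp90 chaperone of the ER. It had signals of 11.42 and 11.08 in old and young PRI-724 cells, 11.33 and 11.76 in old and young vehicle cells, and 11.16 and 12.03 in old and young quiescent cells. The states overlapped, and the order of the ages in PRI-724 cells was the reverse of that in the other states.

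Calr encodes calreticulin, the lectin chaperone that binds calcium and newly made glycoproteins. It stood at 10.93 and 10.43 in old and young PRI-724 cells, 11.13 and 11.69 in old and young vehicle cells, and 10.27 and 11.04 in old and young quiescent cells. Both vehicle arrays were above all other arrays.

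Pdia6 encodes a disulfide isomerase that acts with BiP. Its signal was 9.94 and 9.44 in old and young PRI-724 cells, 9.74 and 10.73 in old and young vehicle cells, and 9.40 and 10.64 in old and young quiescent cells. Young vehicle and young quiescent cells had the highest values, and the remaining 4 arrays lay within 9.40 to 9.94.

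Dnajb9 encodes ERdj4, a cochaperone of BiP that restrains IRE1. It had 8.34 and 8.61 in old and young PRI-724 cells, 8.48 and 9.09 in old and young vehicle cells, and 9.05 and 9.79 in old and young quiescent cells. Within each age the order was PRI-724 below vehicle below quiescent, and in each state old cells were below young cells.

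Dnajc3 encodes p58IPK, a BiP cochaperone that also inhibits PERK. The signals were 8.88 and 8.11 in old and young PRI-724 cells, 8.75 and 9.26 in old and young vehicle cells, and 8.63 and 9.50 in old and young quiescent cells. The old arrays lay within 8.63 to 8.88, and the young arrays held both the lowest and the highest value.

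Sdf2l1 encodes a lumenal protein that works with BiP and the ER DnaJ proteins. It had 7.57 and 7.56 in old and young PRI-724 cells, 7.40 and 8.25 in old and young vehicle cells, and 6.72 and 8.44 in old and young quiescent cells. The ages were apart in quiescent and vehicle cells and level in PRI-724 cells.

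Xbp1 encodes the transcription factor of the IRE1 arm. Its probe set gave 9.90 and 9.15 in old and young PRI-724 cells, 9.56 and 9.19 in old and young vehicle cells, and 9.44 and 9.23 in old and young quiescent cells. All 3 old arrays lay above all 3 young arrays. The probe set gives 1 signal for the gene, which does not separate the spliced from the unspliced mRNA.

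Herpud1 encodes a membrane protein of ER-associated degradation. It had 9.60 and 9.12 in old and young PRI-724 cells, 8.87 and 8.74 in old and young vehicle cells, and 9.34 and 9.74 in old and young quiescent cells. Both vehicle arrays were below all other arrays.

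**Figure D2:**
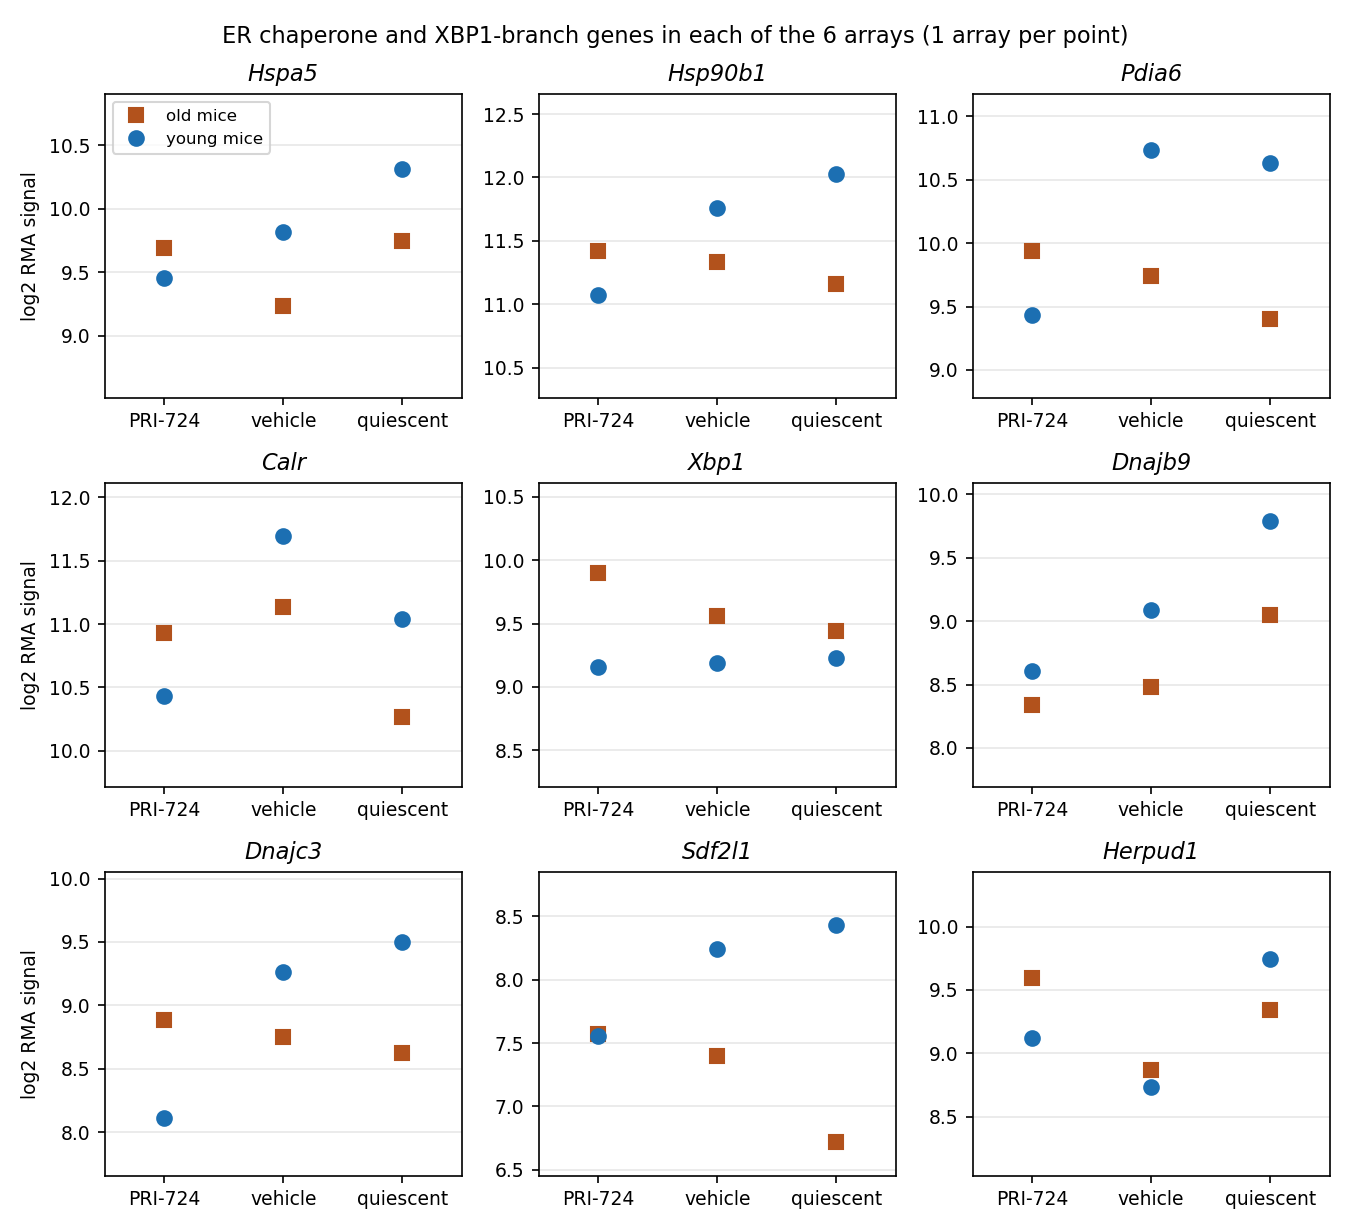
Log2 signal (vertical axis, own range for each gene, no error bars) of the 9 genes in PRI-724, vehicle and quiescent cells, with squares for old and circles for young mice, 1 array per point. In PRI-724 cells the old array is above the young array for 8 of the 9 genes, and in quiescent cells it is below for 8 of the 9.

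Each gene was then set against its own mean over the arrays. The average of the 9 genes was 0.02 and -0.35 (log2) in old and young PRI-724 cells, -0.18 and 0.27 in old and young vehicle cells, and -0.26 and 0.51 in old and young quiescent cells. On the young PRI-724 array 0 of 9 genes were above their own mean, and on the young quiescent array 8 of 9 were. The young quiescent array held the highest value of 6 genes. The genes followed this average unequally: the correlation of a gene with the mean of the other 8 members with values was 0.99 for Hsp90b1, 0.93 for Dnajc3 and Pdia6, 0.78 for Hspa5 and Sdf2l1, 0.61 for Dnajb9, 0.55 for Calr, 0.19 for Herpud1 and -0.27 for Xbp1. These are descriptions over 6 arrays that share their age and state structure.

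The vehicle and quiescent cells were compared to describe activation in culture. Of the 9 genes, 0 passed limma's test at an adjusted p of 0.05, with 3 at an unadjusted p under 0.05; over all tested genes 5.87% passed in either direction (4.61% higher and 1.26% lower) and 22.4% had an unadjusted p under 0.05. Calr was 0.76 ± 0.28 (log2 difference ± SE) higher in vehicle cells, with 0.86 in the old pair and 0.66 in the young pair of arrays (limma, adjusted p = 0.145). Without the young quiescent array this difference was 1.13 and without the old vehicle array 0.97. It was 0.39 without the old quiescent array and 0.55 without the young vehicle array, so that the size of the Calr difference rested on single arrays. Each of these fits leaves 1 array in a compared state, and only the size is read from them. Herpud1 differed by -0.74 ± 0.28, with -0.47 in the old and -1.005 in the young pair (adjusted p = 0.153), and by -1.09 without the old and -0.38 without the young quiescent array. Dnajb9 differed by -0.63 ± 0.26, with -0.57 and -0.70 in the old and young pair (adjusted p = 0.188). Hspa5, the gene of BiP, differed by -0.50 ± 0.27 with almost the same value at both ages, -0.51 and -0.49 (adjusted p = 0.309). The other 5 genes lay between -0.06 and 0.24, with adjusted p of at least 0.759, and their intervals were wide: that of Sdf2l1 ran from -0.62 to 1.11. The median of the 9 genes was -0.05, with 4 higher and 5 lower, against 0.04 for all tested genes; it was -0.46 without the old quiescent array, 0.37 without the young quiescent array and 0.093 without the old vehicle array. The vehicle and quiescent arrays did not overlap for Calr and Herpud1, 2 of 9 genes, against 57.9% of tested genes.

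The PRI-724 and vehicle cells were compared to describe the effect of the inhibitor on activated cells. Again 0 of 9 genes passed limma's test and 1 had an unadjusted p under 0.05; of all tested genes 2.2% passed (0.271% higher and 1.93% lower) and 15.5% had an unadjusted p under 0.05. Calr was the gene with the unadjusted p under 0.05, at -0.73 ± 0.28, with -0.20 in the old and -1.26 in the young pair (adjusted p = 0.252). It passed limma's test when the quiescent arrays were left out of the fit (adjusted p = 0.00941), and without the young (0.0110) or the old (0.00541) quiescent array alone. The difference itself stayed at -0.73 in these fits, and its SE became 0.21, 0.21 and 0.20. Of all tested genes 6.22%, 6.23% and 6.15% passed there, against 2.2% in the main fit. As the difference did not change, the pass reflects how these fits, on fewer arrays, estimate the spread and its degrees of freedom. It is not read as stronger evidence for Calr. Without the young PRI-724 array the Calr difference was -0.15, and without the old one -1.31. It was -0.52 without the young and -0.94 without the old vehicle array. Calr passed in none of these 4 fits. Each of them leaves 1 array in a compared state, so only the size of the Calr difference is read from them. Herpud1 was 0.56 ± 0.28 higher in PRI-724 cells, with 0.73 in the old and 0.38 in the young pair (adjusted p = 0.378); the difference was 0.86 without the young and 0.25 without the old PRI-724 array. Calr and Herpud1 were also the 2 genes whose PRI-724 and vehicle arrays did not overlap, against 44.5% of tested genes. Both comparisons use the same vehicle arrays, so the opposite signs of these genes in activation and under PRI-724 rest partly on the same 2 values. Pdia6 differed by -0.55 ± 0.37 and Dnajc3 by -0.51 ± 0.37 (adjusted p = 0.507 and 0.550). Hspa5 differed by 0.05 ± 0.27, with 0.46 in the old and -0.37 in the young pair (adjusted p = 0.958, 95% interval -0.56 to 0.65).

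The ages differed in sign in this comparison. In old cells 7 of 9 genes were higher with PRI-724 and the median was 0.17, against -0.01 for all tested genes. In young cells 8 of 9 were lower, with a median of -0.69, against -0.14 for all tested genes and -0.42 for the brightest 25%, of which 78.8% were lower. Pdia6 (-1.30), Calr (-1.26) and Dnajc3 (-1.15) were more than 2-fold lower in the young pair. The signs were opposite between the ages for 6 of the 9 genes, against 39.2% of all tested genes. The young PRI-724 array also had the narrowest spread of the 6, and its part in these values was not tested. After cyclic loess scaling the median in the young pair was -0.18, with 7 of 9 genes lower, and after quantile scaling -0.13, with 6 of 9 lower. That in the old pair was 0.15 and 0.23. The median over both ages was -0.30, 0.26 without the young PRI-724 array and -0.80 without the old one.

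The PRI-724 and quiescent cells were compared to see where treated cells stood relative to the starting state. Here 0 of 9 genes passed limma's test and 1 had an unadjusted p under 0.05, against 3.72% of tested genes passing (1.28% higher and 2.43% lower) and 16.3% with an unadjusted p under 0.05. Dnajb9 had the largest difference, -0.95 ± 0.26, with -0.71 in the old and -1.18 in the young pair (adjusted p = 0.0857). It passed after cyclic loess scaling at -0.94 (adjusted p = 0.0430). Hsp90b1 differed by -0.34 ± 0.25 (limma, adjusted p = 0.598). Its difference was -0.76 without the old and 0.07 without the young quiescent array. The groups did not overlap for Hspa5 and Dnajb9, 2 of 9 genes, both lower in PRI-724 cells, against 37.7% of tested genes. The median was 0.26 in the old pair, with 7 of 9 genes higher, and -0.88 in the young pair, with 9 of 9 lower; the medians of all tested genes were 0.03 and 0.05, and those of the brightest 25% were 0.14 and -0.19, with 61.4% lower in the young pair. Over both ages the median of the 9 genes was -0.33; it was 0.16 without the young quiescent array, -0.66 without the old one, 0.17 without the young PRI-724 array and -0.84 without the old one. After cyclic loess scaling 8 of 9 genes remained lower in the young pair, with a median of -0.77.

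**Figure D3:**
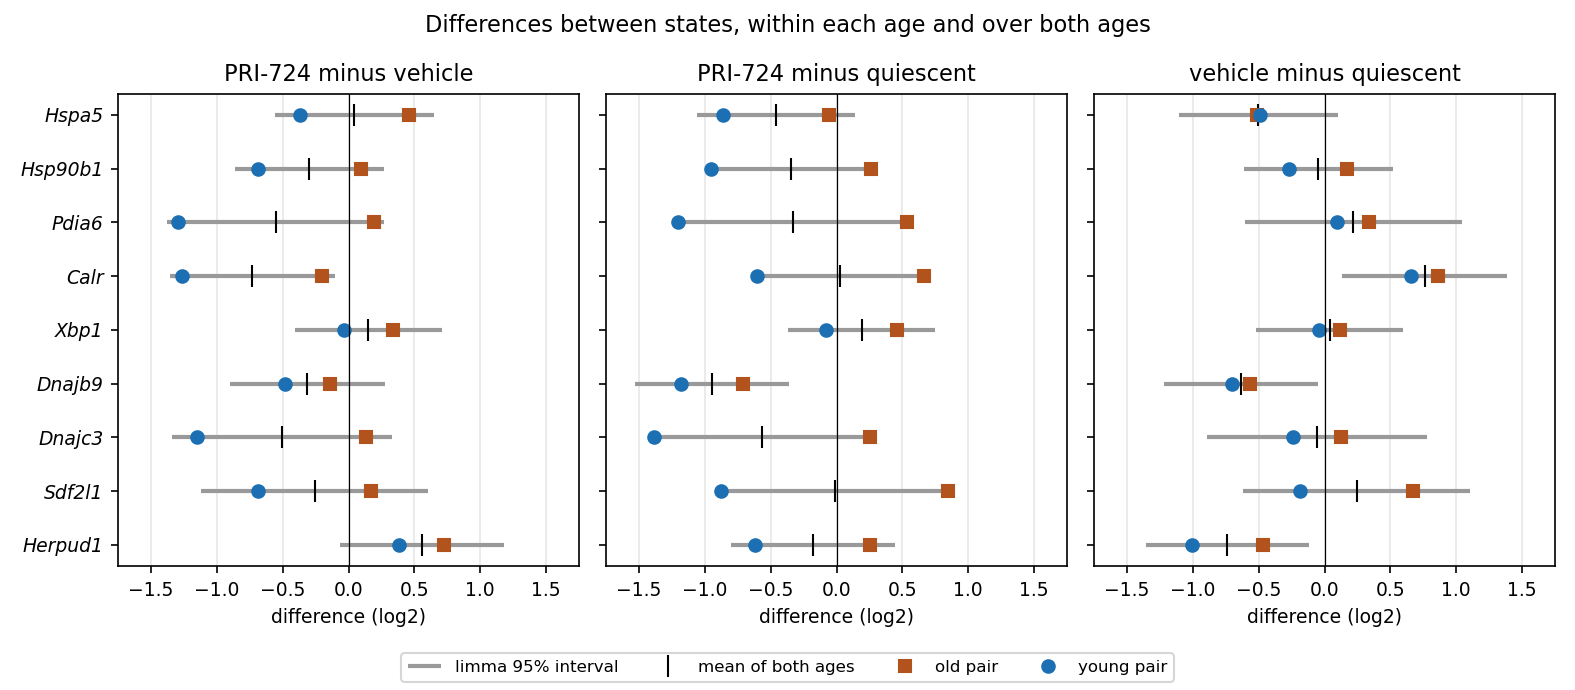
Log2 difference (horizontal axis) between states for the 9 genes, with squares for the old pair, circles for the young pair, a tick for their mean and a grey line for limma's 95% interval. In the panels with PRI-724 the old pair lies to the right of the young pair for all 9 genes as deposited, and Calr and Herpud1 point in opposite directions in the outer panels.

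The response of the old pair minus that of the young pair has no residual error and was not tested. For PRI-724 minus vehicle it was positive for 9 of 9 genes, with a median of 0.82, against 0.18 for all tested genes and 0.43 for the brightest 25%; 60.6% of all tested genes and 85.4% of the brightest were positive. After cyclic loess or quantile scaling 6 of 9 were positive, with medians of 0.48 and 0.46. The largest was that of Pdia6 at 1.49, a value reached by 2.04% of tested genes, followed by Dnajc3 at 1.28 and Calr at 1.06. For PRI-724 minus quiescent it was positive for 9 of 9 genes under the deposited values and both scalings, with a median of 1.22 as deposited, against 0.10 for all tested genes and 0.35 for the brightest 25%; as deposited 56.1% of all tested genes and 76.4% of the brightest were positive. For vehicle minus quiescent it was positive for 8 of 9 genes, with a median of 0.24, against 48.0% of all tested genes and 44.6% of the brightest 25%.

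Over the 3 states, old and young cells were compared as the study's age contrast. Of the 9 genes 0 passed limma's test and 2 had an unadjusted p under 0.05, and of all tested genes 0.515% passed (0.264% higher and 0.251% lower) and 10.4% had an unadjusted p under 0.05. Sdf2l1 differed by -0.85 ± 0.31 (adjusted p = 0.384) and Dnajb9 by -0.54 ± 0.21 (adjusted p = 0.422). Pdia6 differed by -0.57 ± 0.30 (adjusted p = 0.559), with 0.50 in PRI-724 cells against -0.99 in vehicle and -1.23 in quiescent cells. Xbp1 was 0.44 ± 0.20 higher in old cells (adjusted p = 0.499) and the only one of the 9 whose old and young arrays did not overlap, against 9.26% of tested genes. Its difference was 0.75 in PRI-724 cells, 0.37 in vehicle cells and 0.21 in quiescent cells. The median of the 9 genes was -0.30, against 0.04 for all tested genes.

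Within the states the age differences split into 2 patterns. In quiescent cells 8 of 9 genes were lower in old than in young cells, against 45.5% of the brightest 25% of genes. The median of the 9 was -0.77, and 7.42% of the brightest 25% had a difference as low as this median. In vehicle cells 7 of 9 were lower, against 53.0% of the brightest 25%. There the median was -0.56, a value at or below which 8.42% of the brightest 25% lay. Both ranks set a median of 9 genes among single genes and are no test. Sdf2l1 had the lowest value in quiescent cells, -1.72, and Pdia6 the lowest in vehicle cells, -0.99. In PRI-724 cells 8 of 9 genes were higher in old cells, with a median of 0.47, close to the 0.41 of the brightest 25% of genes, of which 13.4% were lower. Cyclic loess scaling left the medians in vehicle and quiescent cells at -0.51 and -0.83 and took that in PRI-724 cells to 0.23, with 6 of 9 higher. When either PRI-724 array was left out, the contrast rested on vehicle and quiescent cells and the median was -0.67. In these fits 7 of 9 genes had an unadjusted p under 0.05 in limma, against 10.6% of all genes. After adjustment 0 of the 9 passed (smallest adjusted p = 0.252). Of all 15526 tested genes 0 passed as well, so that count says nothing particular about the 9 genes. Without either quiescent array the median was -0.042 and 0 of 9 had an unadjusted p under 0.05, against 6.40% of all genes, or 6.42% without the old one (smallest adjusted p = 0.916 and 0.938). Without either vehicle array the median was -0.16. In these fits 1 of 9 had an unadjusted p under 0.05 in limma, against 10.2% of all genes without the young vehicle array and 10.1% without the old one. The hepatocyte markers differed with age in the other direction from the 9 genes in quiescent and vehicle cells, and in the same direction in PRI-724 cells. Their median difference was 3.34 in quiescent, 2.51 in vehicle and 0.94 in PRI-724 cells, and 4 of 8 rose in old cells (limma, adjusted p under the threshold). The part of these markers in the age difference of the chaperones was not tested. The sinusoidal endothelial markers differed with age in the same direction as the 9 genes in each state, with medians of 0.79 in PRI-724, -0.40 in vehicle and -1.47 in quiescent cells, and 0 of 9 passed limma's test. Their part was not tested either.

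**Figure D4:**
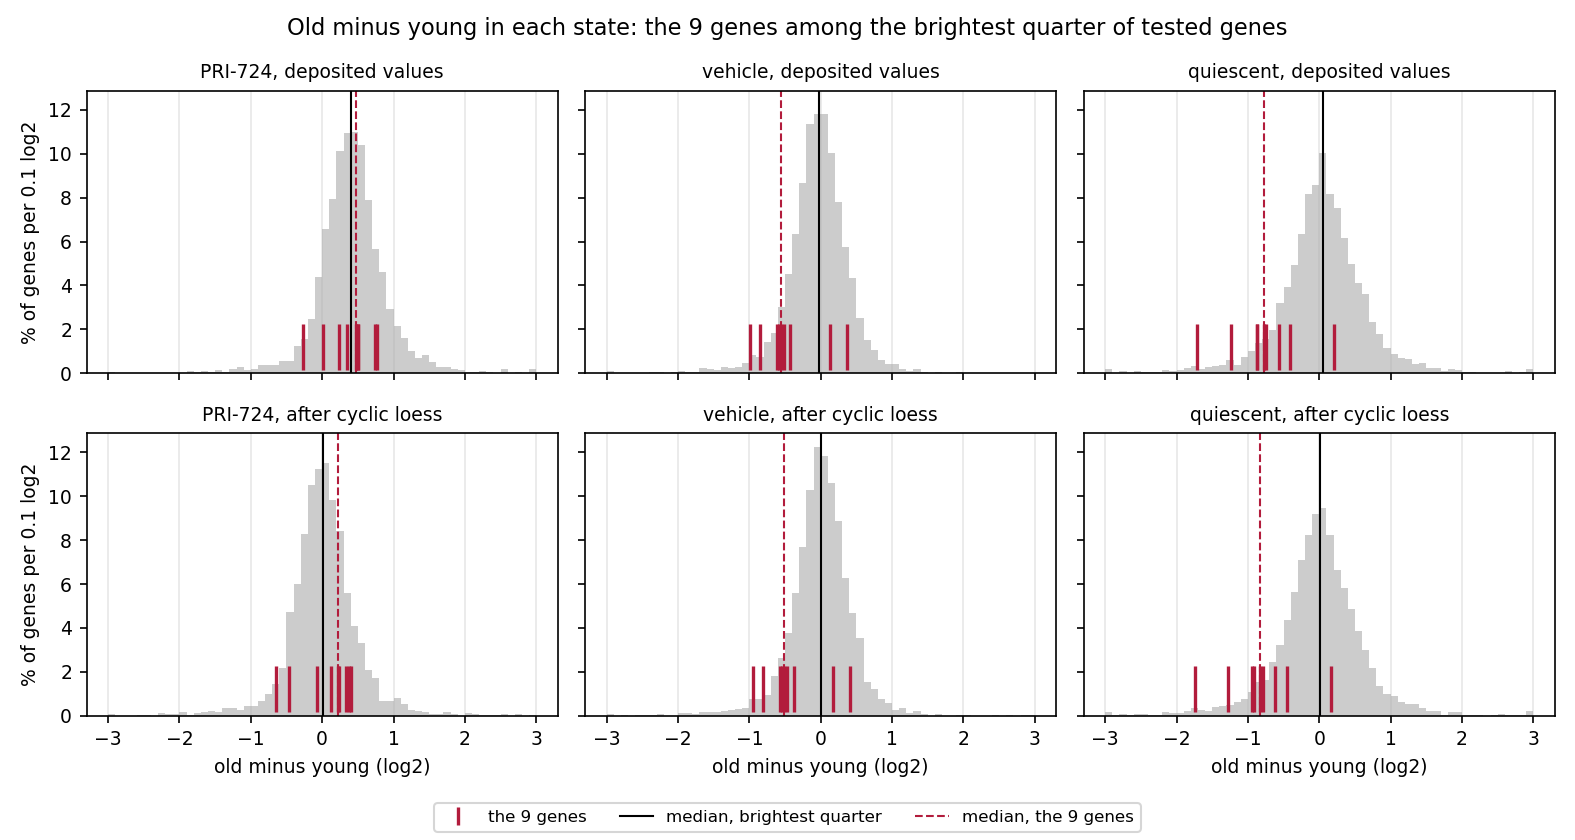
Old minus young difference (horizontal axis, log2) in PRI-724, vehicle and quiescent cells as deposited (top) and after cyclic loess scaling (bottom), with grey bars for the brightest 25% of tested genes (vertical axis, percent of genes per bar), red marks for the 9 genes, a black line for the median of the grey genes and a dashed line for that of the 9. The red marks lie mostly left of the black line in vehicle and quiescent cells, with medians of -0.56 and -0.77, and around it in PRI-724 cells.

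The rest of the ER machinery was read from lists. Of 21 other ER folding factors, 1 rose and 0 fell in vehicle against quiescent cells, and 0 passed the test in the other 3 comparisons. The one that rose was Fkbp14, a prolyl isomerase that acts on procollagen, at 6.64 and 5.56 in old and young PRI-724 cells, 7.34 and 7.09 in vehicle cells and 5.85 and 5.75 in quiescent cells. It was 1.41 ± 0.30 higher in vehicle than in quiescent cells (limma, adjusted p = 0.0273). It missed the threshold without the old quiescent array (1.13, adjusted p = 0.168), without the young vehicle array (1.25, adjusted p = 0.200), and its adjusted p was 0.0626 under cyclic loess and 0.102 under quantile scaling. The count for the list also moved in fits without 1 array of the state not compared. For PRI-724 minus quiescent it was 2 without the young or the old vehicle array. In these fits 6.78% and 6.69% of all tested genes passed, against 3.72% in the main fit. For PRI-724 minus vehicle it was 1 without the young or the old quiescent array, where 6.23% and 6.15% of all tested genes passed, against 2.2%. Serpinh1, the collagen chaperone HSP47, did not pass, at 10.00 and 9.32 in old and young PRI-724 cells, 9.36 and 9.29 in vehicle cells and 9.02 and 7.94 in quiescent cells. Its difference was 1.18 ± 0.29 for PRI-724 minus quiescent cells (adjusted p = 0.0593) and 0.33 ± 0.29 for PRI-724 minus vehicle cells (adjusted p = 0.611). Dnajc10, an ER disulfide reductase, differed by 0.96 ± 0.31 between vehicle and quiescent cells (adjusted p = 0.101). The list's median was 0.50 for vehicle minus quiescent, against -0.05 for the 9 genes, and its age pairs had the same sign (0.40 and 0.68 in old and young cells). For PRI-724 minus vehicle the median was -0.28, with 0.19 in the old and -0.77 in the young pair.

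Of 23 tested factors of ER-associated degradation and of the translocation channel, 0 passed limma's test in any of the 4 comparisons, with 3 or fewer at an unadjusted p under 0.05 except for 4 in PRI-724 minus vehicle. Edem1, which draws misfolded glycoproteins to degradation, differed by -0.12 in the old and -1.63 in the young pair for PRI-724 minus vehicle (adjusted p = 0.294). Sec61g, a subunit of the channel, was 0.96 ± 0.27 higher in vehicle than in quiescent cells (adjusted p = 0.0650). The medians were 0.32 for vehicle minus quiescent, -0.37 for PRI-724 minus vehicle and 0.04 for PRI-724 minus quiescent, and within PRI-724 minus vehicle 0.09 in the old and -0.64 in the young pair.

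The 3 sensors did not pass either. Ern1, which encodes IRE1, differed by -0.61 ± 0.24 between vehicle and quiescent cells (adjusted p = 0.176) and by 0.32 ± 0.24 between PRI-724 and vehicle cells (adjusted p = 0.562). Atf6 gave -0.45 ± 0.24 and 0.34 ± 0.24 for the same comparisons, and Eif2ak3, which encodes PERK, 0.34 ± 0.27 and -0.50 ± 0.27. Of the 10 genes in the list of sensors and their proteases, 0 passed in any comparison of the main fit. In each comparison 1 or 2 of them had an unadjusted p under 0.05 in limma. The list's median for PRI-724 minus vehicle was -0.19, and it changed sign to 0.02 after cyclic loess and 0.06 after quantile scaling.

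The genes of the PERK and ATF4 arm (10 genes) had medians of the same sign at both ages in each state comparison. In vehicle against quiescent cells 2 of 10 fell and 0 rose, and 10 of 10 had a negative difference, with a median of -0.81 and -0.96 and -0.90 in the old and young pair. Ppp1r15a, the phosphatase subunit that restores translation, differed by -1.27 ± 0.27 (limma, adjusted p = 0.0259) and Atf3, a stress transcription factor, by -1.13 ± 0.27 (adjusted p = 0.0402). Neither kept its call in every fit: Ppp1r15a missed the threshold without any 1 of the 4 vehicle and quiescent arrays (adjusted p of 0.0691 to 0.265), and Atf3 without any 1 of the 6 arrays (adjusted p of 0.0618 to 0.435). In PRI-724 against vehicle cells 1 of 10 rose and 0 fell, and 9 of 10 had a positive difference, with a median of 0.76 and 0.77 and 0.84 in the old and young pair. The gene that rose was Trib3, a pseudokinase target of ATF4 and CHOP, at 8.16 and 7.76 in old and young PRI-724 cells, 6.84 and 5.82 in vehicle cells and 7.18 and 6.87 in quiescent cells. The PRI-724 and vehicle arrays did not overlap, and the difference was 1.63 ± 0.29 (limma, adjusted p = 0.0229). This difference was 1.30 without the young vehicle array, 1.50 without the young and 1.76 without the old PRI-724 array. The call did not hold in these fits. Each of them leaves 1 array in a compared state, so only the size of the Trib3 difference is read from them. Trib3 also missed the threshold under cyclic loess scaling at 1.87 (limma, adjusted p = 0.0693) and under quantile scaling at 1.86 (adjusted p = 0.0620). Under these scalings 0.663% and 0.541% of all tested genes passed, against 2.2% in the main fit. Ddit3, which encodes CHOP, differed by 1.13 ± 0.29 (adjusted p = 0.0903) and Atf4 by 0.58 ± 0.25 (adjusted p = 0.301). Without the young or the old quiescent array 3 of the 10 passed in PRI-724 against vehicle cells. In these fits 6.23% and 6.15% of all tested genes passed, against 2.2% in the main fit. After cyclic loess and quantile scaling the list's median for PRI-724 minus vehicle was 0.98 and 1.02, against -0.13 and -0.06 for the 9 chaperone and XBP1-branch genes. Against quiescent cells Atf3 fell in PRI-724 cells, at -1.35 ± 0.27 (limma, adjusted p = 0.0245), and the other 9 genes did not pass. The Atf3 difference was -1.12 without the young quiescent, -1.26 without the young PRI-724 and -1.44 without the old PRI-724 array. Its call did not hold in these fits. Each of them leaves 1 array in a compared state, so only the size of the Atf3 difference is read from them. In old against young cells 0 of 10 passed, with 4 at an unadjusted p under 0.05. There 1 passed without the young or the old vehicle array, when 2.21% and 2.17% of all tested genes passed, against 0.515% in the main fit.

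The cytosolic heat shock chaperones gave the comparison outside the ER. In vehicle against quiescent cells 3 of 10 tested genes fell and 0 rose. Hspa1b differed by -3.55 ± 0.37 (limma, adjusted p = 0.00403), Hspa1a by -3.20 ± 0.44 (adjusted p = 0.00643) and Hsph1 by -1.32 ± 0.26 (adjusted p = 0.0198). Hspa1a and Hspa1b are near-identical copies, so their probe sets may read each other's RNA. The call of Hspa1b did not depend on a single array in this comparison; Hspa1a missed the threshold when the young PRI-724 array (adjusted p = 0.0567) or the old one (0.0570) was left out, and Hsph1 without the young quiescent (0.106), old quiescent (0.121) or young vehicle array (0.144). In PRI-724 against quiescent cells Hspa1b (-2.39 ± 0.37, limma, adjusted p = 0.00767) and Hspa1a (-1.97 ± 0.44, adjusted p = 0.0398) fell. Without the young or the old PRI-724 array the difference was -2.28 or -2.50 for Hspa1b and -1.83 or -2.10 for Hspa1a. That of Hspa1a was -1.09 without the young quiescent array. The calls did not hold in these fits. Each of them leaves 1 array in a compared state, so only the sizes of these differences are read from them. In PRI-724 against vehicle and in old against young cells 0 passed limma's test, with 3 and 2 at an unadjusted p under 0.05. In PRI-724 against vehicle cells 2 passed without the young quiescent array and 1 without the old one. In these fits 6.23% and 6.15% of all tested genes passed, against 2.2% in the main fit. For old against young cells 1 passed without the young or the old vehicle array, where 2.21% and 2.17% of all tested genes passed, against 0.515%.

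**Figure D5:**
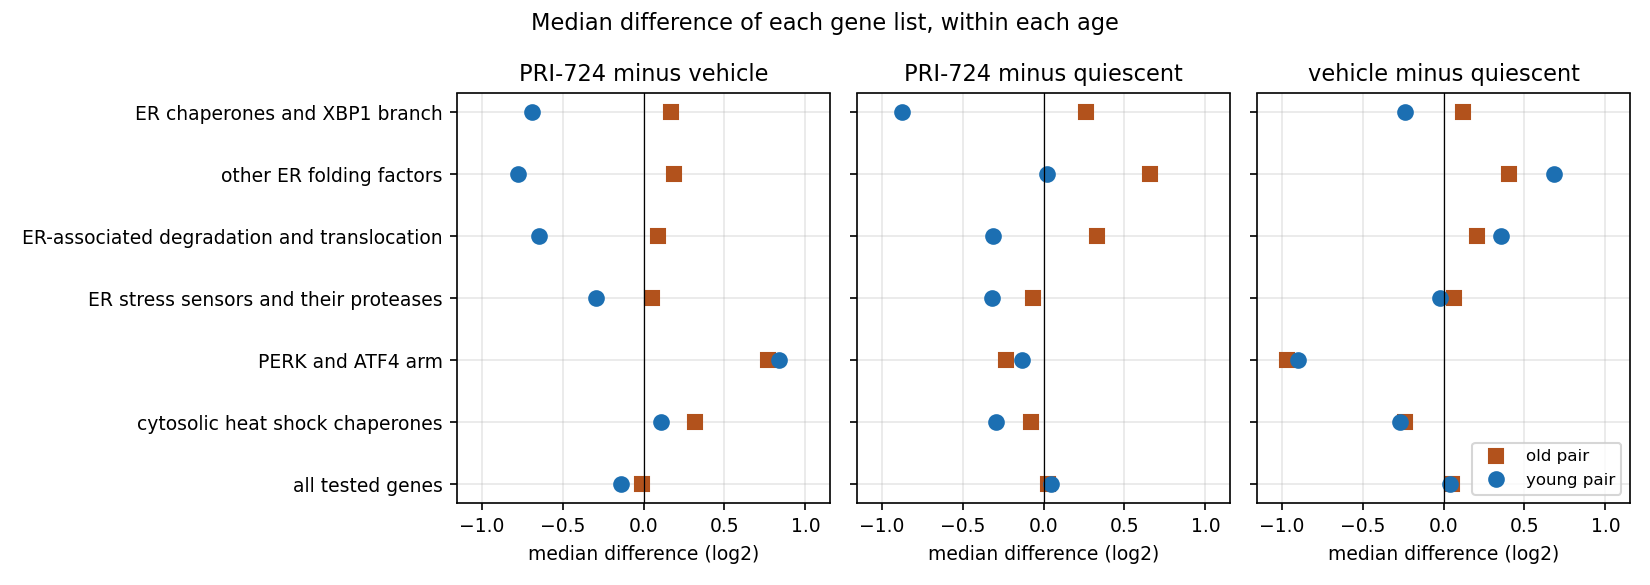
Median log2 difference (horizontal axis) of the 9 genes, 5 other lists and all tested genes, with squares for the old pair and circles for the young pair of each state comparison. The squares and circles lie apart for the ER lists in PRI-724 minus vehicle, at 0.17 and -0.69 for the 9 genes, and together for the PERK and ATF4 targets, at 0.77 and 0.84.

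Genes outside the 10 whose promoter window holds ERSE or ERSE-II were taken as a list by sequence. There were 43 of them, 32 with a value and 20 tested. In vehicle against quiescent cells 1 rose and 0 fell, and in the other comparisons 0 passed, with 1 at an unadjusted p under 0.05 in PRI-724 against vehicle cells, 5 in PRI-724 against quiescent cells and 0 in old against young cells. The one that rose was Lgalsl, at 0.99 ± 0.25 (limma, adjusted p = 0.0476), and it missed the threshold without any 1 of the 6 arrays (adjusted p of 0.0637 to 0.573). In PRI-724 against quiescent cells 1 of the list passed without the young or the old vehicle array. In these fits 6.78% and 6.69% of all tested genes passed, against 3.72% in the main fit. In old against young cells 16 of the 20 were lower, with a median of -0.12; the state medians were 0.08 in PRI-724, -0.29 in vehicle and -0.22 in quiescent cells. Nucb1, a calcium-binding protein, differed by 1.06 ± 0.35 between vehicle and quiescent cells (adjusted p = 0.108), and Ero1b, an ER oxidase, by -1.02 ± 0.29 between PRI-724 and quiescent cells (adjusted p = 0.0892).

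Last, the average pattern of the 9 genes was set against the tested genes outside the 9 that had an SD of at least 0.5 over the arrays, 3310 genes, and the 10 with the highest correlation were named. They were Pnpla8 (Pearson r = 0.99 over 6 arrays), Pla2g12a and Trim12a (0.97), Spats2 (0.96), Hnrnph2 (0.95), and Creld2, Man1a2, Resf1, Dennd5b and Snora31 (0.94). Creld2 encodes an ER-resident protein and was among the 21 folding factors above, at 8.46 and 8.00 in old and young PRI-724 cells, 8.41 and 9.19 in vehicle cells and 8.59 and 9.80 in quiescent cells. Its young quiescent array was the highest and its young PRI-724 array the lowest, as for Hsp90b1 and Dnajc3. Among the 9 genes themselves the closest pairs were Hsp90b1 with Dnajc3 and with Pdia6 (0.96 each), and the most distant was Xbp1 with Dnajb9 (-0.60).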

How the data were processed

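The 6 arrays hold 1 pooled sample for each age and state. The deposited values are log2 signals that the authors made with Affymetrix Expression Console and RMA, per the submitters' processing notes, which are read here without versions or options. The labels' protocols name an RNeasy kit for the RNA and the GeneChip WT PLUS kit for labelling.

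Every difference, level and test was computed from these deposited log2 values. Of 41345 probe sets, 23521 name 1 gene symbol, 1814 several and 16010 none; the probe set with the highest mean stood for a gene (22180 genes). Leaving out the 30% of genes with the lowest mean left 15526. limma 3.58.1 (R 4.3.3) fitted age and state with an intensity trend (2 residual and 7.76 prior degrees of freedom). Its two-sided p-values were adjusted after Benjamini and Hochberg across the 15526 genes, with a threshold of 0.05. The pooled samples were not replicated, so the spread behind these p-values is how far the ages disagree over the states. A response that differs between the ages adds to that spread. The script was tested on simulated data. Tables and motif matches were made with Python 3.11.15, on RefSeq promoter windows of GRCm38.p6.

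Members and lists were chosen with earlier results of these data known. All members are named. Of each other ER, stress or promoter list up to 4 genes with the largest mean absolute state difference were named. The 3 sensors, Ddit3, Atf4 and the 10 genes most like the members' average were named as well. The cell type marker lists are given as sums, medians or counts, and only Lrat, Des, Acta2 and Col1a1 of them are named. Fits were repeated without the filter, with 50% of genes left out, with the mean over a gene's probe sets, without the trend, with fewer terms or arrays, after cyclic loess or quantile scaling, and without each array in turn.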

Additional observations from a re-analysis of the deposited data

Results flagged for a closer look

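Differences between states that were positive in 1 age and negative in the other are listed here; each rests on 1 array per age and state, and the difference between the ages was not tested. For PRI-724 minus vehicle the old and young pair gave 0.46 and -0.37 for Hspa5, 0.093 and -0.69 for Hsp90b1, and 0.20 and -1.30 for Pdia6. In the same comparison they gave 0.34 and -0.036 for Xbp1, 0.13 and -1.15 for Dnajc3, and 0.17 and -0.69 for Sdf2l1. For PRI-724 minus quiescent the old and young pair gave 0.26 and -0.95 for Hsp90b1, 0.53 and -1.20 for Pdia6, and 0.66 and -0.61 for Calr. They also gave 0.46 and -0.076 for Xbp1, 0.26 and -1.39 for Dnajc3, 0.85 and -0.88 for Sdf2l1, and 0.26 and -0.62 for Herpud1. For vehicle minus quiescent they gave 0.17 and -0.27 for Hsp90b1, 0.12 and -0.041 for Xbp1, 0.12 and -0.24 for Dnajc3, and 0.68 and -0.19 for Sdf2l1. Opposite signs thus occurred for 6, 7 and 4 of 9 genes, against 39.2%, 44.3% and 25.9% of all tested genes in the same 3 comparisons.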

How the results depend on the processing

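Each of the 4 counts of genes passing limma's test was 0 of 9 and was recomputed under 13 or 14 other settings. Of 55 such counts 48 stayed at 0. The count became 1 for PRI-724 minus vehicle with only the arrays of the compared states in the fit, when 6.22% of all tested genes passed, against 2.2% in the main fit. It also became 1 for PRI-724 minus quiescent after cyclic loess, with 3.52% against 3.72%. The share of all tested genes that passed moved between settings, so these counts are not read as a change in the 9 genes. Leaving out 1 array gave counts of 0 to 1 in each of the 3 state comparisons and 0 in the age comparison. Of 36 differences of single genes, 20 changed sign under at least 1 setting, and 0 of the 39 values with a changed sign passed the threshold. For vehicle minus quiescent the difference of Xbp1 was -0.14 after cyclic loess and -0.084 after quantile scaling. For PRI-724 minus vehicle that of Sdf2l1 was 0.046 after quantile scaling. For PRI-724 minus quiescent that of Calr was -0.070 after cyclic loess, and that of Sdf2l1 was 0.017 after cyclic loess and 0.084 after quantile scaling. For old minus young that of Herpud1 was -0.054 after cyclic loess. Without 1 array, differences for PRI-724 minus vehicle ran from -0.36 to 0.45 for Hspa5, -0.80 to 0.20 for Hsp90b1, -1.36 to 0.26 for Pdia6, -0.076 to 0.38 for Xbp1, -1.24 to 0.22 for Dnajc3 and -0.90 to 0.39 for Sdf2l1. Those for PRI-724 minus quiescent ran from -0.84 to 0.15 for Hsp90b1, -1.14 to 0.47 for Pdia6, -0.55 to 0.61 for Calr, -0.036 to 0.42 for Xbp1, -1.30 to 0.17 for Dnajc3, -0.66 to 0.63 for Sdf2l1 and -0.53 to 0.17 for Herpud1. Those for vehicle minus quiescent ran from -0.46 to 0.37 for Hsp90b1, -0.28 to 0.71 for Pdia6, -0.13 to 0.21 for Xbp1, -0.56 to 0.44 for Dnajc3 and -0.40 to 0.89 for Sdf2l1. Those for old minus young ran from -0.69 to 0.13 for Dnajc3 and -0.14 to 0.30 for Herpud1. Other differences kept their sign but moved without 1 array. For vehicle minus quiescent they ran from -0.72 to -0.29 for Hspa5, 0.39 to 1.13 for Calr, -0.79 to -0.48 for Dnajb9 and -1.09 to -0.38 for Herpud1, and for PRI-724 minus vehicle from -1.31 to -0.15 for Calr, -0.52 to -0.11 for Dnajb9 and 0.25 to 0.86 for Herpud1. For PRI-724 minus quiescent they ran from -0.87 to -0.052 for Hspa5 and -1.15 to -0.74 for Dnajb9. For old minus young they ran from -0.58 to -0.16 for Hspa5, -0.65 to -0.042 for Hsp90b1, -1.11 to -0.25 for Pdia6, -0.67 to -0.031 for Calr, 0.29 to 0.56 for Xbp1, -0.67 to -0.44 for Dnajb9 and -1.28 to -0.42 for Sdf2l1. A difference without 1 array leans on the age or state that keeps both its arrays; no other cause was tested. The arrays were paired by age in the state comparisons and by state in the age comparison, through the terms of the model; with only the term compared in the model, which leaves them unpaired, each of the 4 counts was 0. With standard errors of 0.25 to 0.39 for the genes in the state comparisons, small differences could not be told from 0.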
